A study of Mus musculus with 15 samples.

Results

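A set of 10 genes of cell adhesion and epithelial-mesenchymal transition (EMT) was examined in RNA sequencing of mouse intestinal organoids, out of the 43629 genes in the count table. It comprised the cadherins Cdh1, Cdh2, Cdh3, Cdh13 and Cdh17, the intermediate filament gene Vim, and the transcription factor genes Zeb1, Zeb2, Snai1 and Snai2. The genes were chosen by name as a functional family, after fold changes between Apc and WT in these same libraries had been seen. Their values in Apc are therefore given as a description, without a test.

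Organoids from crypts of the proximal small intestine of C57B6/129 mice were sequenced as bulk RNA, to ask how a Ptprk-Rspo3 fusion compares with loss of Apc. WT comprised 5 libraries grown in ENR, a medium with EGF, Noggin and R-spondin. Of these, 4 were APC flox/flox lines numbered 1, 2, 5 and 6, and 1 was a dox-naive culture, whose inducible Cas9 had never been induced. The Apc group held 4 libraries of lines 1, 2, 5 and 6 with the genotype Apc delta/delta, grown in EN, which lacks R-spondin. P-Rspo3 comprised 4 cultures in EN, labelled 15d, 4d, M and F, carrying an inversion, made with doxycycline-inducible Cas9, that joins Ptprk to Rspo3. These cultures grew out as polyclonal populations under withdrawal of R-spondin. Medium and genotype changed together between WT and either mutant group and cannot be told apart, whereas Apc and P-Rspo3 shared EN. Line of origin and induced Cas9 changed with genotype between P-Rspo3 and the flox lines, from which all Apc libraries came. These cannot be told apart from genotype either. All cultures were started from isolated crypts in Matrigel, a basement membrane gel. No label ties a library to an animal, so the p-values measure the spread between these libraries.

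The 13 libraries of the 3 groups held between 28902729 and 35528495 counts. A gene with at most 3 counts in a library, which corresponds to 0.0724 to 0.112 CPM (counts scaled to library size) after TMM scaling, is called not detectable here, and this limit covers counting error only. Rspo3 had 0 to 1 counts in WT, 7 to 57 in Apc and 539 to 1079 in P-Rspo3. The count of Apc itself was 4046 to 6810 in WT and 9265 to 10953 in Apc, and a count over the whole gene does not check the deletion of an exon. Another 2 libraries, titled LIPO and NAIVE_F, entered no group. The title NAIVE_F conflicts with its genotype label, P-Rspo3. LIPO is labelled WT, in ENR, and its title names no genotype. The summed FPKM (fragments scaled to transcript length and library size) of 7 epithelial markers was 1868 to 2271 in WT, 1735 to 2176 in Apc and 1881 to 2258 in P-Rspo3.

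Cadherins are calcium-dependent adhesion proteins. In the classical members, such as E-cadherin (Cdh1), N-cadherin (Cdh2) and P-cadherin (Cdh3), the cytoplasmic tail binds catenins, among them beta-catenin, which is also the effector that APC holds in check in the Wnt pathway. In textbook EMT, SNAI and ZEB transcription factors repress Cdh1 through E-boxes while vimentin and N-cadherin appear. T-cadherin (Cdh13) has no cytoplasmic tail and is held in the membrane by a lipid anchor. LI-cadherin (Cdh17) is a short-tailed cadherin of liver and intestine that is abundant in enterocytes.

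On GRCm38, Cdh1 spans 106603351 to 106670246 of chromosome 8 (plus strand), and Cdh3 lies 46053 bases upstream of it, from 106510891 to 106557297. Cdh13 spans 118283733 to 119324921 on the same strand of chromosome 8. Cdh17 lies on chromosome 4 from 11758147 to 11817895 and Vim on chromosome 2 from 13573927 to 13582826, both on the plus strand. No exon of these genes overlapped an exon of another annotated gene. Exons of Zeb1 and Zeb2 overlapped those of antisense genes (Gm10125, and Gm27761 with Zeb2os), and those of Zeb2 also Mir5129 on the same strand. The strand setting of the counting is not given in the sources used here, so reads of Zeb1 and Zeb2 cannot be told apart from those of the antisense genes.

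Promoters in the RefSeq table for GRCm38.p6, windows around the gene start, were matched for Vim, Zeb2 and Snai1. Stretches of 30 bases on the plus strand are shown for Vim, the gene that varied most between Apc libraries, with its TATA box (TATAAA) in capitals, and for Snai1, with an E-box of the kind bound by SNAI and ZEB proteins (CACCTG) in capitals.
Vim, chr2:13574267-13574296: tcctaacagtgtTATAAAagcagcgccctt
Snai1, chr2:167538057-167538086: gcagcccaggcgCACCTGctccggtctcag
The capitals start 32 bases before the RefSeq start of Vim and 126 bases before that of Snai1. The RefSeq start of Vim lies downstream of the GENCODE start given above, within the GENCODE gene. TATAAA or its reverse complement TTTATA was found in 13.6% of 32851 promoters, and CACCTG or CAGGTG in 20.2%. The E-box was not found in the promoter windows of Vim and Zeb2. CTTTGA or TCAAAG, the core bound by TCF/LEF factors, was found in 16.0% of all promoters and in none of these 3 genes' windows. A match of this kind describes letters and not binding.

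Cdh13, Cdh3 and Vim were higher in all Apc libraries than in all others, and Cdh17 was lower. Cdh1 had a fitted fold above 1 in Apc. Among the genes of Cdh1 repressors in the set, Zeb1 and Snai1 had at most 3 counts in every library of the 3 groups. Zeb2 reached 16 counts and Snai2 35, both in Apc. Between P-Rspo3 and WT, none of the genes tested was called. The plot of counts by library shows all values.

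**Figure D1:**
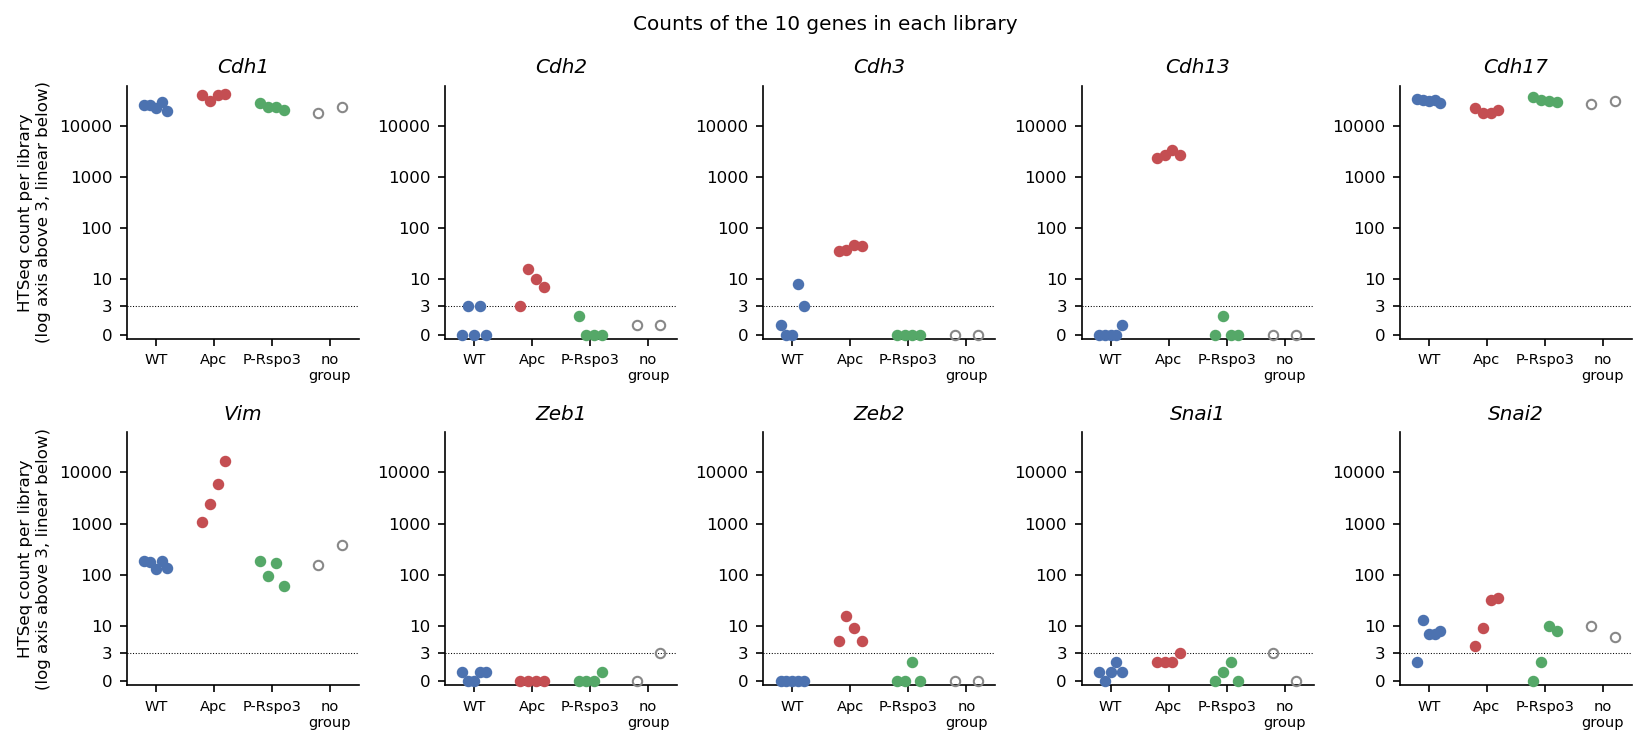
HTSeq counts of the 10 genes in each library (one panel per gene, points are libraries, y axis logarithmic above 3 and linear below). The dotted line marks 3 counts, and hollow points are the 2 libraries that entered no group. Cdh13 lies at 2325 to 3322 counts in the 4 Apc libraries and at 0 to 2 elsewhere, whereas Cdh1 and Cdh17 have at least 17429 counts in every library.

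Cdh1, which encodes the E-cadherin of the epithelial adherens junction, was abundant in every library. In WT it had a TMM-scaled CPM of 831, 913, 842, 850 and 697 (replicates 1, 2, 5, 6 and naive). The Apc libraries had 1020, 858, 1056 and 989 (lines 1, 2, 5 and 6), and the P-Rspo3 libraries 845, 807, 761 and 733 (15d, 4d, M and F). The Apc values overlapped those of WT at line 2 and lay above all P-Rspo3 values. On the FPKM scale, which is not TMM-scaled, the Apc libraries (164 to 205) lay above the WT libraries (110 to 145) without overlap. Within lines, the ratio of Apc to WT was 1.23, 0.94, 1.25 and 1.16 for lines 1, 2, 5 and 6, so 3 of the 4 lines were higher after deletion of Apc and 1 was lower. The fitted log2 fold change was 0.24 ± 0.0927 (SE) in Apc against WT, under the limit of 1 used for a call. Between P-Rspo3 and WT it was -0.07 ± 0.0904 (SE), with an adjusted p of 0.795 by edgeR's quasi-likelihood test and a 95% interval of -0.244 to 0.11.

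Cdh17, which encodes LI-cadherin, was the most abundant of the 10 genes per length in WT and P-Rspo3, and fell behind Cdh1 in Apc. In WT its CPM was 1072, 1155, 1156, 938 and 1001 (replicates 1, 2, 5, 6 and naive). The Apc libraries had 566, 504, 454 and 499, and the P-Rspo3 libraries 1118, 1121, 1009 and 1060. Every Apc library lay below every library of the other groups, and WT and P-Rspo3 overlapped. The ratio of Apc to WT within lines ran from 0.393 in line 5 to 0.532 in line 6. The fitted log2 fold change was -1.09 ± 0.0943 (SE) against WT and -1.09 ± 0.084 (SE) against P-Rspo3, just beyond the limit of 1. On the scale of log2(FPKM + 1), where the median of all genes was shifted by 0.17 against WT and 0.16 against P-Rspo3, the differences were -0.80 and -0.82, short of that limit. Between P-Rspo3 and WT, Cdh17 differed by 0.02 ± 0.0894 (SE) on the log2 scale (edgeR adjusted p = 0.963), with a 95% interval of -0.155 to 0.196.

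Compared per length, the order of the 2 main cadherins was reversed in Apc. The FPKM of Cdh17 was 240 ± 19.0 (SD, n = 5) in WT, 138 ± 10.6 (SD, n = 4) in Apc and 244 ± 16.2 (SD, n = 4) in P-Rspo3. For Cdh1 the FPKM was 132 ± 13.3 (SD, n = 5) in WT and 189 ± 17.5 (SD, n = 4) in Apc, and 111 to 140 in P-Rspo3. The ratio of Cdh17 to Cdh1 FPKM was 1.56 to 2.02 in WT and 1.86 to 2.05 in P-Rspo3, but 0.611 to 0.839 in Apc, so it lay above 1 in all 9 libraries of the first groups and below 1 in all 4 of the last. The summed FPKM of the 5 cadherins overlapped between groups, at 333 to 405 in WT, 320 to 360 in Apc and 340 to 401 in P-Rspo3. Cdh17 made up 61.0 to 66.9% of this sum in WT and 35.6 to 43.0% in Apc. In bulk RNA, fewer cells with Cdh17 and less Cdh17 RNA per cell cannot be told apart.

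**Figure D2:**
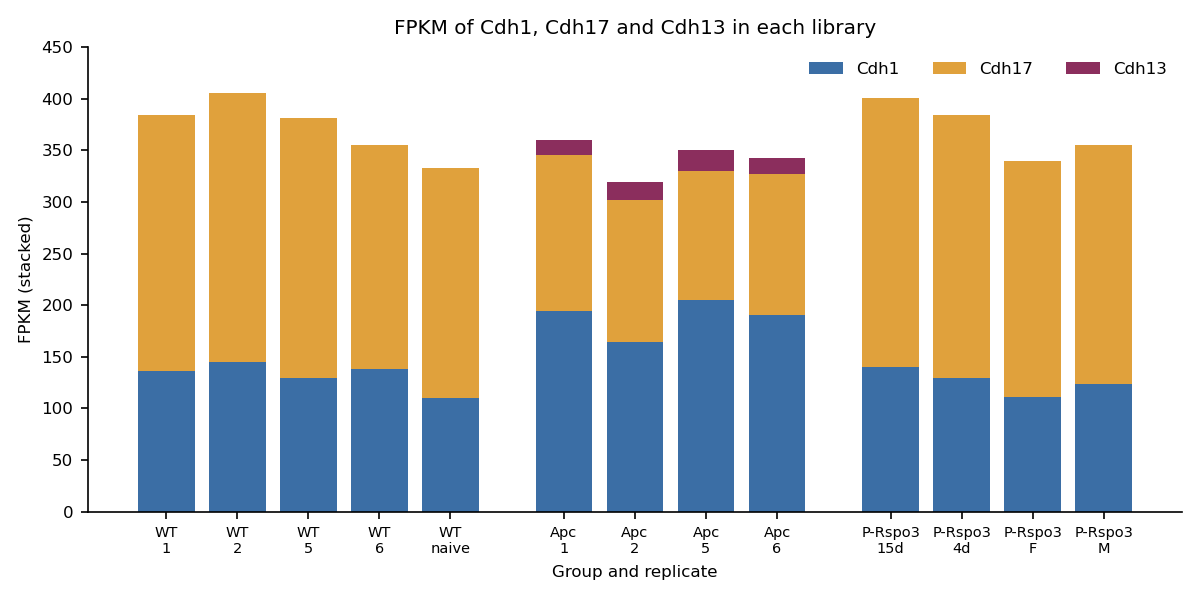
FPKM of Cdh1, Cdh17 and Cdh13 stacked for each library (one bar per library, grouped as WT, Apc and P-Rspo3; y axis linear from 0). Cdh17 is the larger segment in all 9 WT and P-Rspo3 libraries, Cdh1 in all 4 Apc libraries, and Cdh13 is visible in Apc alone, where it takes 4.02 to 5.96% of the cadherin FPKM.

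Cdh13, which encodes the lipid-anchored T-cadherin, was not detectable in WT and was present in every Apc library. The WT libraries had 0, 0, 0, 0 and 1 counts, the P-Rspo3 libraries 2 counts in 4d and 0 in the other 3, and the Apc libraries 2325, 2663, 3322 and 2663 (lines 1, 2, 5 and 6). No library of another group came near the Apc level. With the other groups set to the limit of 3 counts in a library, Cdh13 was at least 635-fold higher in Apc than in WT and at least 652-fold higher than in P-Rspo3. In contrast to Vim, its level was alike in the 4 Apc lines, with a CPM of 71.3 ± 12.3 (SD, n = 4) and a ratio of 1.47 between the highest and the lowest. Its FPKM of 17.2 ± 2.88 (SD, n = 4) in Apc was below that of Cdh1 and Cdh17 in every library.

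The other classical cadherins of the family stayed low. Cdh3, the P-cadherin gene that neighbours Cdh1, had 1, 0, 0, 8 and 3 counts in WT (replicates 1, 2, 5, 6 and naive), 36, 38, 48 and 45 in Apc and 0 in all P-Rspo3 libraries. The groups did not overlap, and the rise was from a level at the limit of detection to an FPKM of 0.227 ± 0.0293 (SD, n = 4), far below that of Cdh1. The log2 fold change against WT was 3.69 ± 0.609 (SE), and 4.78 without WT replicate 6, the only WT library above 3 counts. Against P-Rspo3, Cdh3 was at least 9.88-fold higher. Cdh2, the N-cadherin gene, had at most 3 counts in WT, at most 2 in P-Rspo3, and 3, 16, 10 and 7 in Apc. It did not pass the filter on FPKM, and the Apc values met the WT range at 3 counts in line 1.

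Vim, which encodes vimentin, the intermediate filament of mesenchymal cells, was higher in every Apc library, by amounts that differed widely between lines. In WT it had 185, 174, 132, 184 and 134 counts (replicates 1, 2, 5, 6 and naive), and in P-Rspo3 182, 96, 168 and 61 (15d, 4d, M and F). The Apc libraries had 1070, 2388, 5932 and 16907 counts (lines 1, 2, 5 and 6). All 4 Apc libraries lay above all others, and WT and P-Rspo3 overlapped. The ratio of Apc to WT CPM within lines was 4.59 in line 1, 10.7 in line 2, 31.3 in line 5 and 74.8 in line 6. On the FPKM scale Vim ran from 16.5 in line 1 to 253 in line 6 of Apc, a 15.3-fold range, and from 2.17 to 4.81 in WT. In line 6 its FPKM was thus above that of Cdh1 (191) and Cdh17 (137), whereas in line 1 it was close to that of Cdh13.

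The log2 fold change of Vim was 4.89 ± 0.673 (SE) in Apc against WT and 5.29 ± 0.84 (SE) against P-Rspo3. Without the Apc library of line 6 the values were 3.92 and 4.32. With the line as a block it was 4.20 against WT. In P-Rspo3 against WT, Vim differed by -0.39 ± 0.261 (SE) on the log2 scale (edgeR adjusted p = 0.552), with a 95% interval of -0.899 to 0.124.

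Markers of other cell types were read beside Vim, since fibroblasts, endothelial and immune cells all express it. The summed FPKM of 13 fibroblast markers was 0.088 to 0.224 in WT, 0.27 to 0.944 in Apc and 0.243 to 0.638 in P-Rspo3, and 6 of the 13 (Col1a2, Col3a1, Col6a2, Dcn, Des and Lum) had at most 3 counts in every Apc library. For 8 endothelial markers the sum was 1.51 to 2.98 in WT, 9.9 to 18.5 in Apc and 1.14 to 2.08 in P-Rspo3, with Kdr and Emcn at most 3 counts in every Apc library. The endothelial genes Vwf and Tek rose in Apc against WT, by 5.32 ± 0.33 (SE) and 3.82 ± 0.369 (SE) on the log2 scale, and Pecam1 fell by 2.95 (edgeR adjusted p of 3.2e-07, 7.4e-06 and 5.4e-05). The 12 immune markers summed to 2.71 to 4.02 in WT, 4.12 to 10.7 in Apc and 1.96 to 4.7 in P-Rspo3. Cd68 alone had 0.539 to 1.35 in WT and 3.65 to 10.1 in Apc, most of the sum there. Of the 12, 8, Ptprc included, had at most 3 counts in every Apc library. Of the 8 enteric neuron and glia markers, 7 had an FPKM value. These summed to 1.74 to 3.07, 1.21 to 1.89 and 1.48 to 2.47 in WT, Apc and P-Rspo3. In calls of Apc against WT, 12.2% of all genes tested were higher and 14.1% lower. Of 2 fibroblast markers tested, 1 was higher (Pdgfra, which passed the filter through Apc alone). The other, Pdgfrb, was lower, passed the filter through WT alone and did not pass it with the line as a replicate block. Of 4 endothelial markers 3 were higher and 1 lower. Of 4 immune markers 1 was higher (Cd68) and 3 lower (Csf1r, Itgam and Lyz2). Of 3 neuron and glia markers tested, 2 were lower (Ret and S100b), and S100b passed the filter through WT alone. Of the 7 epithelial markers 1 was higher (Krt18) and 2 lower (Krt20 and Vil1). The Vim FPKM of 16.5 to 253 in Apc stood beside these sums, and the part of other cells in it was not tested.

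The EMT transcription factor genes Zeb1, Zeb2, Snai1 and Snai2 had at most 35 counts in any library. Zeb1 had 0 counts in all 4 Apc libraries, and at most 1 in any WT or P-Rspo3 library. Snai1 had 2, 2, 2 and 3 counts in Apc and at most 2 in the other groups. Neither gene was thus detectable at this depth. Zeb2 was at 0 counts throughout WT and had 5, 16, 9 and 5 counts in Apc. Among the P-Rspo3 libraries, M had 2 counts and the others 0. The Apc libraries stood above the others, and Zeb2 was at least 2.08-fold higher in them than in WT, at an FPKM of 0.0529 ± 0.0341 (SD, n = 4) that did not pass the filter.

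Snai2, which encodes Slug, was the most abundant of the 4 factors. It had 2, 13, 7, 7 and 8 counts in WT (replicates 1, 2, 5, 6 and naive), 4, 9, 32 and 35 in Apc (lines 1, 2, 5 and 6) and 0, 2, 10 and 8 in P-Rspo3 (15d, 4d, M and F). Lines 5 and 6 were above every other library and lines 1 and 2 lay within the WT range. Lines 5 and 6 were also the lines with the most Vim. The log2 fold change was 0.99 ± 0.624 (SE) in Apc against WT, with a 95% interval of -0.236 to 2.21. Between P-Rspo3 and WT it was -0.57 ± 0.74 (SE), with an edgeR adjusted p of 0.789.

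**Figure D3:**
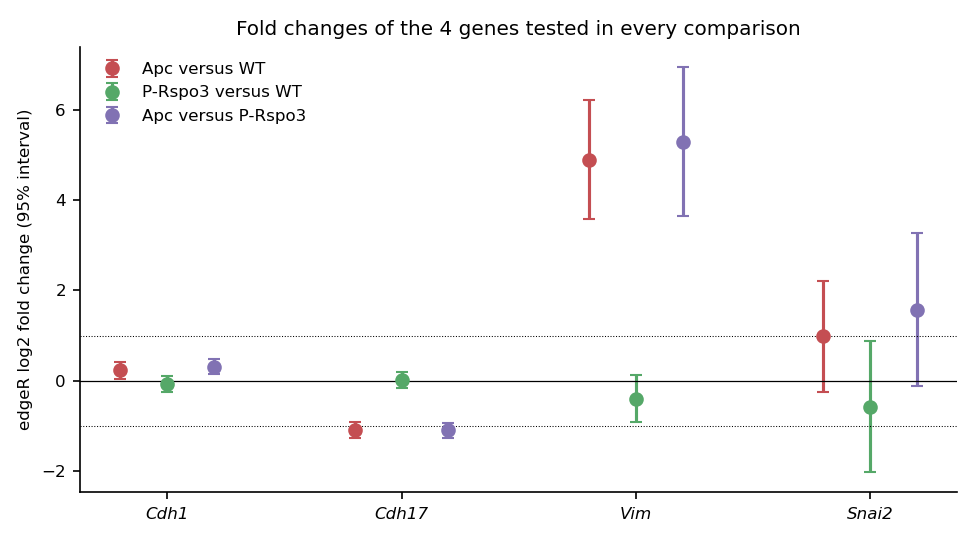
Log2 fold changes from edgeR of the 4 genes tested in every comparison (points, with 95% intervals as bars; dotted lines mark a change of 2-fold). Cdh1 stays within 0.32 of 0 in all comparisons, Cdh17 lies at -1.09 in both comparisons with Apc, and Vim at 4.89 and 5.29, while the values of P-Rspo3 against WT lie between -0.57 and 0.02.

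Counted over the family, 6 of the 10 genes passed the filter on FPKM in Apc against WT, and Cdh3 and Cdh13 passed through the Apc libraries alone. Of the 6, 3 were called higher (Cdh3, Cdh13 and Vim), where 12.2% of all 16749 genes tested were called higher, and 1 was called lower (Cdh17), where 14.1% were. The groups did not overlap for these 4 genes, and 51.8% of all genes tested did not overlap either. The median log2 fold change of the 6 was 2.34, also with Cdh13 at its lower bound, and that of all genes was 0.001. In Apc against P-Rspo3 the calls fell on the same 3 genes and on Cdh17, where 13.4% of 16456 genes were called higher and 13.3% lower. There 5 of the 6 did not overlap, Cdh1 included, beside 53.9% of all genes. Their median was 3.43, or 2.44 with Cdh3 and Cdh13 at their bounds. The genes were chosen with these contrasts known, so nothing is read from the counts.

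In P-Rspo3 against WT, 4 of the 10 genes were tested (Cdh1, Cdh17, Vim and Snai2). None was called higher, where 0.00625% of 15992 genes were, and none lower, where 0% were. No gene of the 4 reached an unadjusted p under 0.05 in edgeR, against 2159 of all genes, and DESeq2 and limma also called 0. The groups overlapped for all 4, and 4.85% of all genes did not overlap. The 95% intervals of Cdh17, Cdh1 and Vim lay within 2-fold, whereas that of Snai2, from -2.02 to 0.89 on the log2 scale, reached beyond it. The 2 comparisons with WT share its 5 libraries.

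Among the other genes of these pathways, 194 in 14 lists, 112 were tested in Apc against WT. Of these, 34 were called higher and 17 lower, with a median log2 fold change of 0.21. Over all genes tested, 12.2% were called higher and 14.1% lower. Some of the genes called higher passed the filter through Apc alone, which fixed their direction. Some called lower, such as Prrx1, passed it through WT alone, which fixed theirs too. In Apc against P-Rspo3, 32 of 112 were called higher and 18 lower, beside 13.4% and 13.3% of all genes. In P-Rspo3 against WT edgeR called 0 of 100 in either direction, beside 1 higher and 0 lower of all 15992 genes. An unadjusted p under 0.05 in edgeR was reached by 17 of the 100 and by 2159 of all genes. DESeq2 called Cdh9 and Pdgfrb higher and Esam and Fstl1 lower, beside 55 higher and 173 lower over all genes. Without the dox-naive library edgeR called Cdh9, Cdh26 and Pdgfrb higher, beside 166 higher and 100 lower over all genes. Cdh9, Cdh26, Pdgfrb, Esam and Fstl1 were named after their values were seen. Cdh9 had 1 to 11 counts in WT and 18 to 41 in P-Rspo3.

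Some cadherin genes outside the family also rose in Apc from no or few counts in WT. Of 17 further classical cadherin genes, 3 were tested in Apc against WT and all were called higher, where 12.2% of all genes were. Cdh5, the cadherin of endothelial junctions, had 217 to 372 counts in the Apc libraries and 0 in all others, and was at least 66.1-fold higher. Cdh11, a cadherin of mesenchymal cells, had 6 to 14 counts in WT and 30 to 127 in Apc (log2 fold change 2.97 ± 0.459 SE). Neither Cdh5 nor Cdh11 reached an FPKM of 0.1 in any WT library, so they passed the filter through Apc alone and their direction was fixed by it. Cdh24, the last of the 3 and named after its values were seen, had 90 to 175 counts in WT and 256 to 367 in Apc. Against P-Rspo3, Cdh9 and Cdh26 were called lower, and Cdh9 was at least 11.3-fold lower. Neither Cdh9 nor Cdh26 reached an FPKM of 0.1 in any Apc library. They passed the filter through P-Rspo3 alone, which fixed their direction. Of 4 desmosomal cadherin genes tested against WT, 2 were called higher, of which Dsg1c, which also passed the filter through Apc alone, was higher by 2.99 ± 0.286 (SE) on the log2 scale.

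Among the protocadherin, FAT and brush border cadherin genes, 3 of 13 tested were called higher in Apc against WT and 5 lower. Over all genes these shares were 12.2% and 14.1%. The 3 higher (Fat2, Pcdh7 and Pcdh18) passed the filter through Apc alone. Among the 5 lower, Cdhr1 passed it through WT alone. Pcdh7 and Pcdh18, protocadherin genes, were at least 31.9-fold and 13.8-fold higher. Cdhr5, which encodes a cadherin that links the microvilli of the brush border, fell with Cdh17, from a CPM of 366 ± 73.6 (SD, n = 5) in WT to 44.1 ± 6.34 (SD, n = 4) in Apc (log2 fold change -3.07 ± 0.169 SE, edgeR adjusted p = 1.5e-07). The median of this list was -0.02, beside 0.001 over all genes. Of 16 catenin and adherens junction genes tested, 2 were called higher and 0 lower. Nectin4, which encodes an adhesion receptor of the junction, had 28 to 81 counts in WT and 584 to 892 in Apc, and Ctnnal1, a relative of alpha-catenin, rose by 1.12 ± 0.0922 (SE) on the log2 scale.

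The other regulators of the epithelial state moved in both directions in Apc against WT, where 12.2% of all genes were called higher and 14.1% lower. Of 12 further EMT transcription factor genes, 3 were tested, with Sox4 called higher and Prrx1 lower. The last of the 3, Tcf4, named after its values were seen, was higher at the adjusted p alone and was not called. It had 535 to 912 counts in WT, 1113 to 2288 in Apc and 715 to 1070 in P-Rspo3. Sox4 had a CPM of 39.4 ± 13.5 (SD, n = 5) in WT and 133 ± 23.1 (SD, n = 4) in Apc (edgeR adjusted p = 3.9e-05). Prrx1, which encodes a homeodomain factor of mesenchyme, had 217 to 530 counts in WT, 94 to 278 in P-Rspo3 and 1 to 3 in Apc. It was at least 163-fold lower in Apc than in WT. No Apc library reached an FPKM of 0.1 for Prrx1, so it passed the filter through WT alone, which fixed its direction. Of 12 factors that maintain epithelium, 4 were called higher, among them Grhl3 (log2 fold change 3.72 ± 0.314 SE), and 2 lower, namely Ovol1 (-1.31 ± 0.0799 SE) and Ovol2 (-1.24 ± 0.234 SE). Ovol1 and Ovol2 encode zinc finger repressors of EMT factors, and Grhl3 a grainyhead factor of epithelial barriers.

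Epithelial junction and mesenchymal genes were read next in Apc against WT. Over all genes tested, 12.2% were called higher and 14.1% lower. Of 16 epithelial junction and keratin genes tested, 2 were called higher, the claudin gene Cldn4 (2.38 ± 0.298 SE, log2) and the keratin gene Krt18 (1.11 ± 0.115 SE), and 0 lower, with a median of -0.02. At the adjusted p alone 6 were higher and 6 lower, where 5028 and 4864 of all 16749 genes tested were. Of 15 mesenchymal programme genes tested, 9 were called higher and 0 lower, with a median of 2.35, where 12.2% of all genes were called higher. Of these 9, 3 (Axl, Fn1 and Loxl2) passed the filter through the Apc libraries alone, and the list was chosen with earlier results known, so nothing is read from the count. Fn1, which encodes fibronectin, was at least 189-fold higher in Apc than in WT, and Ccn2, a matricellular gene, rose by 6.22 ± 0.622 (SE) on the log2 scale. Of 14 TGF-beta ligand, receptor and Smad genes tested, 3 were called higher and 0 lower, with Tgfb2 at 5.78 ± 0.42 (SE) and the co-receptor gene Tgfbr3 at 3.53 ± 0.374 (SE). The mesenchymal list was 7 of 14 higher against P-Rspo3, where 13.4% of all genes were, and 4 of the 7 passed the filter through Apc alone.

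**Figure D4:**
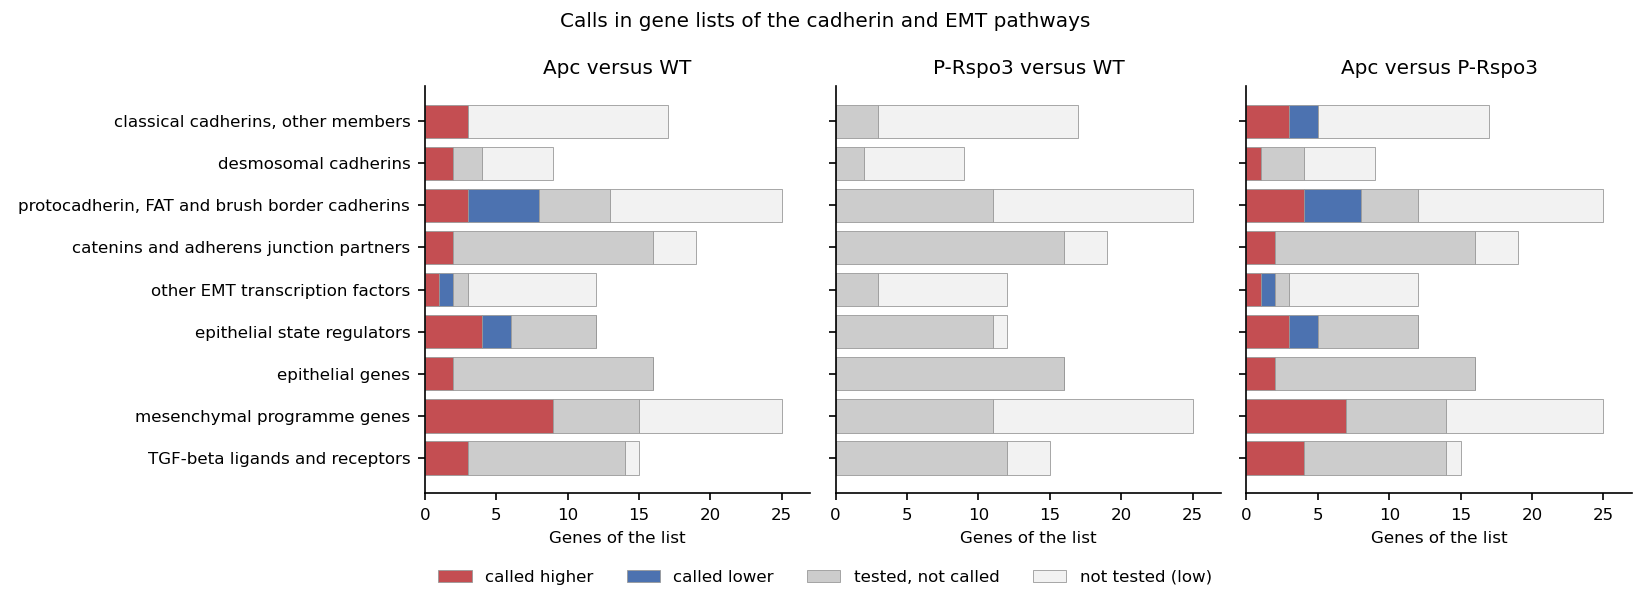
Calls in 9 gene lists of the cadherin and EMT pathways, without the 10 genes themselves (one panel per comparison, bars count genes of a list; red called higher, blue called lower, grey tested and not called, white not tested). The mesenchymal list holds 9 higher and 0 lower calls in Apc against WT, of which 3 passed the filter through Apc alone. No list holds a call in P-Rspo3 against WT.

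The spread of Vim between the Apc lines was set beside that of the 9 mesenchymal genes called higher. Line 6, with the most Vim, was the highest of the 4 for 8 of the 9 genes, and Postn was highest in line 2. Line 1, with the least Vim, was lowest for 1 of them and line 2 for 6. The ratio between the highest and the lowest Apc library was 3.26 for Fn1 (10.1 in line 2 and 32.8 CPM in line 6), 5.05 for Ccn2 and 1.86 for Itga5, where Vim had 15.1. Postn had 0.417 CPM in line 5 and 8.32 in line 2, a wider range than that of Vim. Of the 9 genes, 8 varied less between lines than Vim did. These are 4 libraries, and no test was made of their order.

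**Figure D5:**
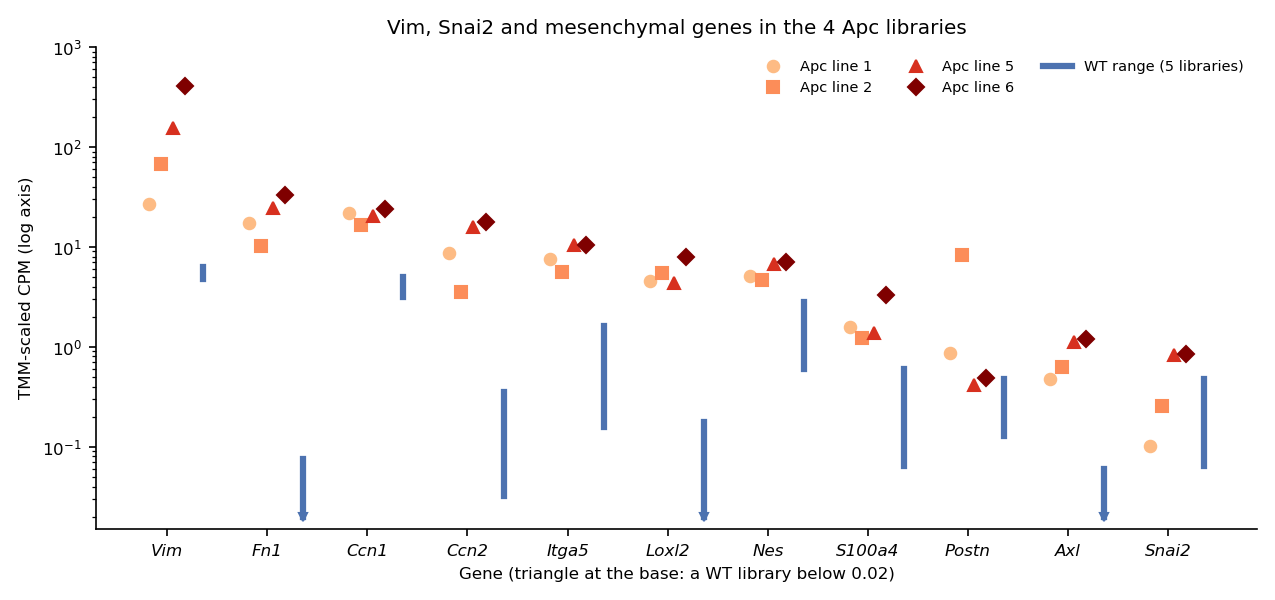
TMM-scaled CPM (log axis) of Vim, the 9 mesenchymal genes called higher and Snai2 in the 4 Apc libraries (symbols, one per line), with the range of the 5 WT libraries as a blue bar. Vim runs from 27.1 in line 1 to 408 in line 6, and for Snai2 lines 1 and 2 fall within the WT range of 0.0638 to 0.472.

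The genes whose pattern was most like a member's were found from Pearson's r of log2(CPM + 1) over the 13 libraries, which fall into 3 groups, so that a high r can stand for the difference between groups alone. For Cdh13 these were Sox17, Bend5 and Ifitm1, each with an r of 0.999. Sox17, a gene of endoderm and endothelium, was at 0 CPM throughout WT and at 183, 223, 227 and 136 CPM in Apc (lines 1, 2, 5 and 6). For Cdh17 they were Myo1d (0.996), Net1 (0.993) and Azin1 (0.993). The CPM of Myo1d, an unconventional myosin gene, was 498 to 681 in WT, 546 to 584 in P-Rspo3 and 176 to 233 in Apc. For Vim they were Igfbp1 (0.989), Wnt10a (0.988) and Eya2 (0.988). Igfbp1 had 1.49, 4.64, 6.72 and 12.4 CPM in the Apc lines 1, 2, 5 and 6, in the same order as Vim, and at most 0.109 in WT. For Cdh1 they were Cnn2 (0.941), Zfp991 (0.937) and Cd99l2 (0.934), a looser likeness than for the other 3.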

How the data were processed

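RNA sequencing of 15 organoid cultures was analysed, of which 13 were assigned to WT, Apc or P-Rspo3 from their labels. The files deposited by the authors hold unnormalized counts for each Ensembl gene (HTSeq 0.6.0) and FPKM (Cufflinks 2.2.1) of reads mapped to GRCm38 by STAR. The annotation release and strand setting are not given in the sources used here. Symbols and positions came from GENCODE M21, for 42462 of 43629 genes.

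The count test was edgeR's quasi-likelihood test (version 4.0.16, R 4.3.3, TMM scaling), fitted separately to each pair of groups. A gene entered if its FPKM reached 0.1 in at least the number of libraries of the smaller group. A call needed an adjusted p (Benjamini-Hochberg, all genes) under 0.05 and a log2 fold change beyond 1 in size. A standard error was the fold change divided by the root of the F statistic, and 95% intervals were normal intervals from it. Where no library of the lower group exceeded 3 counts, the fold is a lower bound. TMM-scaled CPM gives levels between libraries and FPKM levels between genes.

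All 10 genes are named, and from each of 14 lists up to 4 called genes per comparison whose groups did not overlap, the 2 highest and 2 lowest. The genes, lists and tests were chosen with earlier results of these data known. On simulated counts with 200 genes changed by 2 on the log2 scale, 200 were recovered in each comparison, with 2 false calls among 16749 genes in Apc against WT, 1 among 15992 in P-Rspo3 against WT and 2 among 16456 in Apc against P-Rspo3. The simulation gave every gene the same variability between libraries and changed only genes with ample counts. It therefore does not show what would be recovered among genes at a few counts, or among genes as variable as Vim. No pair of libraries was alike within counting noise, the smallest chi-square per gene being 20.5. Apc and WT replicates of the same number are the same line by their titles. Their deviations from the group means correlated at a median of 0.11 (-0.019 to 0.221, 4 pairs), against -0.0387 for 12 other pairs. Alternatives were DESeq2 1.42.0 and its size factors, and limma 3.58.1 on log2(FPKM + 1) and log2(FPKM + 0.1). Also used were other filters, the newer edgeR test and 1 fit of all groups. Further fits left each library out, took WT of the flox lines only, or set the line as a replicate block. The last tried both assignments of LIPO and NAIVE_F.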

Additional observations from a re-analysis of the deposited data

Results flagged for a closer look

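The library titled NAIVE_F, labelled P-Rspo3 in EN, entered no group. It lay above the ranges of both WT and P-Rspo3 for Vim, Cdh17 and Zeb1. Zeb1 had 3 counts, at the limit of detection, where WT had at most 1. Its Vim level was 14.6 CPM, above the 4.72 to 6.32 of the 5 WT libraries and the 2.22 to 5.62 of P-Rspo3. The lowest Apc library had 27.1 CPM. Cdh17 in NAIVE_F was at 1161 CPM, above the highest WT library (1156) by less than the spread between WT libraries. The highest P-Rspo3 library had 1121 CPM. NAIVE_F carried 729 counts of Rspo3, within the 539 to 1079 of P-Rspo3. The library titled LIPO had 0, within the 0 to 1 of WT. Of 17 groups of values examined for a library far from the rest of its group, none held one, where chance gives about 1 in 20.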

How the results depend on the processing

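The calls of the 10 genes were the same, 3 higher and 1 lower in both comparisons with Apc and 0 in P-Rspo3 against WT, whichever library was left out, and with the line as a replicate block. In the lists the block kept all 34 higher calls of Apc against WT and 16 of 17 lower: Pdgfrb no longer passed the filter on FPKM and Fstl1 was gained (edgeR adjusted p = 0.0403, 0.0905 without the block). Without a filter on FPKM, 5 were higher in both comparisons with Apc, Cdh2 and Zeb2 added, and the cause is the wider set tested. With limma on log2(FPKM + 1) and log2(FPKM + 0.1), 0 were lower in both comparisons, since Cdh17 missed the limit of 1. Cdh3 was lost in both with limma on log2(FPKM + 1), at a log2 fold change of 0.28 against WT and 0.29 against P-Rspo3, and was not tested with an FPKM filter of 1, leaving 2 higher. With limma the share of higher among all calls went from 46.4% to 55.6% and 59.9% against WT and from 50.3% to 56.0% and 61.2% against P-Rspo3. In Apc against WT, the genes of the lists numbered 56 higher and 28 lower at the adjusted p alone, beside 5028 and 4864 of all 16749 genes. With an FPKM filter of 1 the list genes numbered 18 and 10, beside 1184 and 1650 of 12334. With limma on log2(FPKM + 1) they numbered 19 and 6, beside 1418 and 1132 of 16749. Against P-Rspo3 the list genes numbered 55 and 28, 20 and 6, and 20 and 4 in these settings. Over all genes the calls there were 4719 and 4557 of 16456, 1264 and 1533 of 12197, and 1430 and 1124 of 16456. In P-Rspo3 against WT, DESeq2 called 2 of the list genes higher and 2 lower, beside 55 and 173 of all 15992 genes. WT of the flox lines only gave 3 higher, and leaving out 1 library 0 to 3. The uncalled difference of Cdh17 in P-Rspo3 against WT changed sign to -0.003 with an FPKM filter of 1, -0.026 without WT replicate 6, -0.002 without P-Rspo3 replicate 4d (-0.026 to 0.049 over all such fits) and -0.003 with NAIVE_F as WT and LIPO as P-Rspo3. That of Vim became 0.158 with LIPO as WT and NAIVE_F as P-Rspo3. The cause of these changes was not tested. Calls over all genes in P-Rspo3 against WT rose from 1 higher and 0 lower to 166 and 100 without the dox-naive library. That library was the only one of WT outside the flox lines, and the part of line origin in this rise was not tested. Genes at a few counts cannot be ranked at this depth.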
